A study of Mus musculus with 6 samples.

Results

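DNA replication and nucleotide synthesis genes were followed in splenic regulatory T cells (Treg), the CD4+ subset that restrains immune responses. The 41 genes were taken by name, with no threshold on their values, for roles in S phase, from origin licensing to chromatin assembly. Earlier results of these data were known when the genes and the lists set beside them were chosen. Each of the 41 matched 1 of the 36811 rows of the expression table. Treg were sorted by an EGFP reporter at Foxp3, whose product defines the Treg lineage, after enrichment of CD4+ T cells. RNA sequencing gave 6 libraries from C57BL/6 mice aged 18 to 21 weeks. The 3 libraries labelled cKO came from Bach2fl/fl Foxp3EGFP-Cre-ERT2 mice, and the 3 labelled WT from Bach2+/+ Foxp3EGFP-Cre-ERT2 mice. Both genotypes thus carried the same Foxp3-driven Cre, fused to an oestrogen receptor domain so that it acts after tamoxifen, and the treatment is not given in the sources used here. Bach2 encodes a transcriptional repressor that restrains effector programmes in T cells. The comparison addresses how the transcriptome of Treg differs between these genotypes. The labels do not say whether the libraries of a group came from separate animals, so p-values measure only the spread between these libraries.

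Before S phase, the origin recognition complex, Cdc6 and Cdt1 load the ring of MCM subunits 2 to 7 onto DNA. Cdc45 and the GINS complex then turn the ring into an active helicase, and primase, polymerases, the sliding clamp PCNA and its loader copy the strands. Resting T cells hold low amounts of many of these transcripts, and entry into the cell cycle raises them through E2F transcription factors.

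RefSeq promoter windows on GRCm38.p6, with 250 bases before and 50 after each start site, were at hand for 34 of the 41 genes. E2F-type letters (TTTCCCGC, TTTCGCGC, TTTGCCGC or TTTGGCGC, on either strand) stood in the window of 13 of the 34, or 38.2%, against 2.61% of all 27025 genes with a window. The 13 were Cdc6, Cdt1, Clspn, Dtl, Lig1, Mcm3, Mcm5, Mcm6, Mcm7, Orc1, Pola1, Pold1 and Rfc3. In a list of other replication genes the same letters stood in 8 of 30 windows (26.7%), and in one of mitosis genes in 1 of 26 (3.85%). In the mitosis list the letters TTTGAA of the CHR element, a site used by late cell cycle genes, stood in 20 of 26 (76.9%), against 7 of 30 other replication genes (23.3%), 3 of the 34 replication genes (8.82%) and 20.2% of all genes. The CCAAT box stood in 21 of the 34 (61.8%), in 22 of 26 mitosis genes (84.6%), in 15 of 30 other replication genes and in 41.1% of all genes. The letters TGACTCAGC, a core to which Bach proteins can bind with small Maf proteins, stood in none of the 34 windows. They stood in none of the mitosis or other replication windows either, and in 0.503% of all. At so low a share, their absence from 34 windows carries little information. Such matches describe letters in a window and are not shown to be bound.

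Shown here are the 250 bases before the start of Mcm6, the most abundant MCM subunit, with 3 matches in capitals, of which 2 overlap on opposite strands (chr1:128359706-128359955, minus strand). Beside it stand the 250 bases before Mcm10, the gene with the largest difference between the groups, which hold no match (chr2:5012792-5013041, minus strand). The full window of Mcm10 runs on past the start and ends in TTTGGCG, and a site cut by its edge would not be counted. The last is a stretch of 30 bases just after the start of Mcm3 with 2 matches (chr1:20820266-20820295, minus strand). Each is written 5′ to 3′ along its gene, on GRCm38.p6.
Mcm6: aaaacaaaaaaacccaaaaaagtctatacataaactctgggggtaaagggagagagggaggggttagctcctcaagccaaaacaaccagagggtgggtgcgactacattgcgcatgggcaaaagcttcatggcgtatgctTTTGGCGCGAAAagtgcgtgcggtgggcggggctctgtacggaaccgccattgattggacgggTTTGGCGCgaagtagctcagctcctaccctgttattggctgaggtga
Mcm10: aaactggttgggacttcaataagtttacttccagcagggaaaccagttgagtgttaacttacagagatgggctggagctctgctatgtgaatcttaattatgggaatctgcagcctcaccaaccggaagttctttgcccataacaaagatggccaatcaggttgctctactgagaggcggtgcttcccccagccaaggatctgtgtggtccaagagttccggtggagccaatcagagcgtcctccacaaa
Mcm3: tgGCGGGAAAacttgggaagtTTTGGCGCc

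Bach2, the gene targeted in the cKO genotype, showed no lower level there. Values by library run in the order of replicates 1, 2 and 3. FPKM gives fragments per kilobase of transcript, scaled to sequencing depth. By replicate, Bach2 was at 7.88, 9.19 and 6.44 FPKM under the cKO label, and at 3.29, 8.25 and 4.80 under the WT label, and the groups overlapped. Its log2 difference was 0.52 (limma, Benjamini-Hochberg adjusted p = 0.925), or 0.26 without WT replicate 1 and 0.81 without WT replicate 2. Which exons the floxed allele removes is not given in the sources used here and each gene has a single value, so directions rest on the labels. Foxp3 was present in each library, at 5.16 to 9.44 FPKM. The scale from fragments to FPKM, estimated from the steps between low values, lay between 3040000 (WT 2) and 5030000 (cKO 2) fragments. The 4 highest rows of the table took 32.4% to 42.9% of the FPKM sum in the libraries labelled cKO and 43.9% to 46.9% in those labelled WT.

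No replication gene passed the test between the groups, while most of them stood somewhat higher in the libraries labelled cKO. Of the 41 genes, 40 had a mean of at least 1 FPKM and were tested. None had an adjusted p under 0.05 (limma, Benjamini-Hochberg over 11979 genes, smallest adjusted p = 0.874), where 0.025% of all genes tested did. The log2 difference was above 0 in 36 of the 40, with a median of 0.28, against 55.0% of all genes tested and a median of 0.03. At an unadjusted p under 0.05, 7 members were higher with the cKO label and 0 were lower, against 3.59% and 1.78% of all genes tested. In 10 members every library labelled cKO lay above every library labelled WT, and in 0 below, against 6.96% and 3.75% of all genes tested. Leaving out cKO 2 or WT 2 raised that 10 to 18 or 17, and the share of all genes tested to 12.3% or 12.6%. Without cKO replicate 1 the count above 0 was 29 and that at an unadjusted p under 0.05 was 4 (4.42% of all genes). Without WT replicate 3 these counts were 31 and 4 (2.99%), and without cKO replicate 2 they were 39 and 11 (3.13%). Averaged over the 6 libraries, members ran from 0.876 FPKM for Exo1 to 155 FPKM for Rpa1. The 5 above 100 FPKM were Rpa1, Slbp, Mcm6, Pcna and Rfc2, in falling order, with overlapping ranges between neighbours, and 8 lay under 5 FPKM. In such bulk libraries a larger share of cycling cells and more transcript per cell cannot be told apart.

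**Figure D1:**
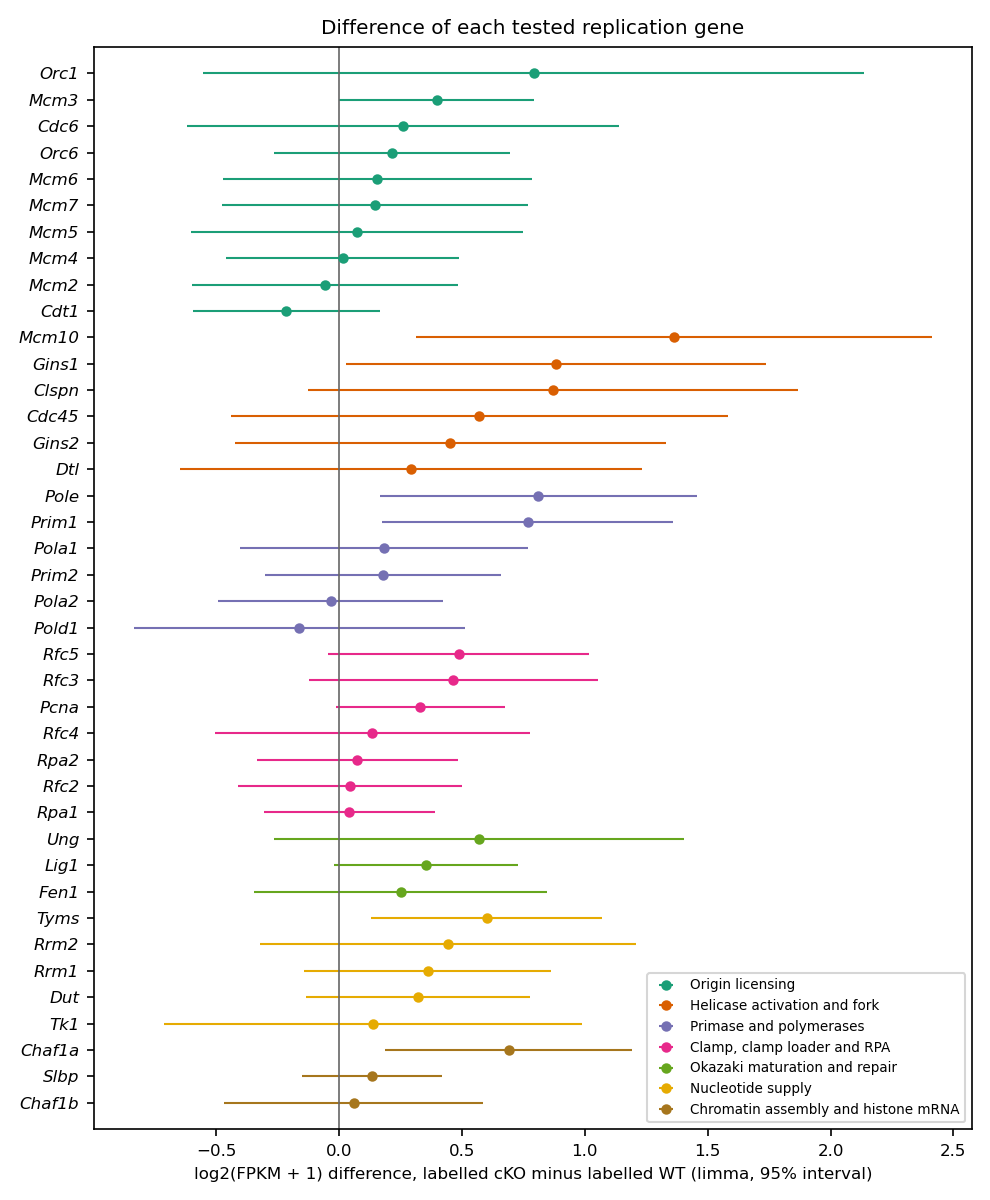
Log2(FPKM + 1) difference between libraries labelled cKO and WT (horizontal axis) for each of the 40 tested genes, with the 95% interval from limma and colours for the roles. Points lie right of 0 for 36 genes, from Cdt1 at -0.21 to Mcm10 at 1.36, and most intervals cover 0.

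Most genes of origin licensing had small differences between the groups, and Orc1 and Mcm3 had the largest. Of 10 tested, 8 had a log2 difference above 0, with a median of 0.15, against 55.0% and 0.03 over all genes tested. In 1 gene, higher with the cKO label, the unadjusted p was under 0.05 (limma), against 3.59% of all genes tested. That gene was Mcm3, a subunit of the helicase ring, with 60.7, 45.9 and 54.3 FPKM under the cKO label, against 45.8, 40.4 and 35.1 under the WT label. The groups did not overlap, though cKO 2 and WT 1 lay almost together. The log2 difference of Mcm3 was 0.40 with a 95% interval from 0.0011 to 0.79 (limma, unadjusted p = 0.0495, adjusted p = 0.925).

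Mcm6 was the most abundant subunit of the ring in each of the 6 libraries. It had 178, 97.7 and 162 FPKM across the libraries labelled cKO, against 127, 154 and 104 across those labelled WT. The other subunits lay between 27.8 and 60.7 FPKM, so Mcm6 had 2.13 to 3.80 times the FPKM of Mcm3 and 2.98 to 4.46 times that of Mcm7 within a library. The log2 difference of Mcm6 between the groups was 0.16 with an interval from -0.47 to 0.78 (limma, adjusted p = 0.965), and it turned to -0.0090 without cKO replicate 1. For Mcm2, Mcm4, Mcm5 and Mcm7 the log2 differences lay between -0.06 and 0.15. In cKO 2, 5 of the 6 subunits had their lowest value of all libraries, and the exception was Mcm3.

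The loading factors were sparser. Cdt1, which brings the ring to origins, reached 13.8, 11.9 and 14.8 FPKM with the cKO label, compared with 15.7, 17.3 and 14.3 with the WT label, the most negative difference of the set at -0.21 (limma, adjusted p = 0.925). Orc1, the largest origin recognition subunit, was low in 2 of the 3 libraries labelled WT, while WT 2 was the highest of all 6. It was at 2.99, 1.55 and 2.47 FPKM under the cKO label, at 3.46 FPKM in WT 2, and at only 0.218 and 0.249 FPKM in WT 1 and WT 3. Each Orc1 value rests on about 3 to 33 fragments, by the estimated scale and the longest coding transcript. Cdc6 and Orc6 stood at 1.85 to 5.25 and at 6.95 to 11.2 FPKM, and their groups overlapped.

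Genes that activate the helicase or travel with the fork had the largest median difference among the roles. They also had the lowest median level, at 4.47 FPKM, against 9.59 FPKM for the next lowest role, primase and polymerases. All 6 tested had a log2 difference above 0, with a median of 0.72, against 55.0% and 0.03 over all genes tested. In 2, both higher with the cKO label, the unadjusted p was under 0.05 (limma), against 3.59% of all genes tested. Mcm10, a scaffold that helps start the helicase, had 7.67, 4.70 and 4.67 FPKM across the libraries labelled cKO, against 3.63, 0.564 and 1.27 across those labelled WT. Its lowest value labelled cKO lay above its highest labelled WT, and WT 1 was far above the other two of its group. The mean of Mcm10 was 3.11-fold higher in the libraries labelled cKO, with a log2 difference of 1.36 and a standard error of 0.439 (limma, unadjusted p = 0.0185, adjusted p = 0.915). An estimated 8 to 135 fragments underlie each value.

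Gins1, a GINS subunit, reached 5.53, 9.89 and 5.54 FPKM with the cKO label, compared with 4.08, 1.72 and 4.39 with the WT label. The groups did not overlap, with cKO 2 highest and WT 2 lowest (log2 difference 0.88, limma, adjusted p = 0.920), on 6 to 54 fragments. Without WT replicate 2 the difference was 0.57. Its partner Gins2, the most abundant gene of this role, had the same 2 libraries at its ends but overlapping groups, at 12.5, 28.0 and 24.8 against 14.2, 10.5 and 21.4 FPKM. Clspn, an adaptor of the replication checkpoint, had 3.25, 2.03 and 7.76 FPKM across the libraries labelled cKO, against 2.01, 1.49 and 1.46 across those labelled WT. Much of its log2 difference of 0.87 came with cKO 3, and it was 0.44 without cKO replicate 3. Cdc45 and Dtl, the latter a substrate receptor for the destruction of Cdt1, followed Orc1 in being high in WT 2, and low in WT 1 and WT 3. Dtl was at 4.43 FPKM in WT 2 and at 1.63 and 1.43 FPKM in the other two.

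Among primase and polymerase genes, Prim1 and Pole had the largest differences. Prim1, the catalytic primase subunit, reached 9.83, 15.5 and 11.2 FPKM with the cKO label, compared with 8.43, 5.08 and 6.65 with the WT label, without overlap. Its mean was 1.81-fold higher, with a log2 difference of 0.77 (standard error 0.248, limma, unadjusted p = 0.0185, adjusted p = 0.915). Prim2, the other primase subunit, had a log2 difference of 0.18, and the ratio of Prim1 to Prim2 ran from 0.450 in WT 2 to 1.65 in cKO 2. Pole, the catalytic subunit of the leading-strand polymerase epsilon, had 3.54, 5.74 and 3.81 FPKM across the libraries labelled cKO, against 1.72, 1.75 and 2.65 across those labelled WT. Its groups did not overlap either (2.14-fold, log2 difference 0.81, limma, adjusted p = 0.915).

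Pold1, the catalytic subunit of polymerase delta and the most abundant of this role, did not split by label. It reached 44.7, 22.1 and 27.2 FPKM with the cKO label, compared with 41.5, 28.4 and 32.2 with the WT label, so cKO 1 and WT 1 were highest. Its log2 difference was -0.16 and turned to 0.051 without cKO replicate 2. Pola1 and Pola2, of polymerase alpha, had differences of 0.18 and -0.03, and Pola2 had 2.91 to 4.89 times the FPKM of Pola1 within a library.

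Genes of the clamp, its loader and the single-strand binding protein RPA ranged from 27.2 FPKM for Rfc3 to 155 FPKM for Rpa1 on average. All 7 tested had a log2 difference above 0, with a median of 0.14, against 55.0% and 0.03 over all genes tested. None had an unadjusted p under 0.05 (limma), against 3.59% of all genes tested higher with the cKO label and 1.78% lower. Pcna, the sliding clamp, had 137, 117 and 134 FPKM across the libraries labelled cKO, against 117, 90.9 and 101 across those labelled WT. Its groups just failed to overlap, cKO 2 and WT 1 being nearly equal, and its mean was 1.26-fold higher (log2 difference 0.33, 95% interval -0.012 to 0.67, limma, adjusted p = 0.925). Rpa1, the large RPA subunit and the highest of all members, stood at 174, 142 and 155 against 166, 160 and 132 FPKM. The direction of Rpa1, 0.042 on the log2 scale, turned with quantile normalization and without cKO replicate 1 or WT replicate 3.

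The loader subunits had unlike differences. Rfc5 reached 42.8, 32.3 and 56.3 FPKM with the cKO label, compared with 34.5, 27.5 and 29.1 with the WT label, with only cKO 2 below WT 1. Rfc3 stood at 31.1, 28.6 and 34.0 FPKM in cKO 1, 2 and 3, close together, and at 20.1, 32.4 and 17.0 FPKM in WT 1, 2 and 3, where WT 2 reached the other group. Their log2 differences were 0.49 and 0.47, against 0.14 for Rfc4 and 0.04 for Rfc2 (limma, adjusted p from 0.925 to 0.992). Rfc5 came to 0.29 without cKO replicate 3, and Rfc3 to 0.28 without WT replicate 3 and to 0.72 without WT replicate 2. Rfc2 had 2.65 to 4.84 times the FPKM of Rfc4 within a library.

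Of the genes for joining Okazaki fragments and repair, Lig1, the replicative DNA ligase, had 25.8, 32.3 and 28.4 FPKM across the libraries labelled cKO, against 25.3, 21.7 and 20.2 across those labelled WT. The groups did not overlap, by a small margin between cKO 1 and WT 1 (1.29-fold, log2 difference 0.35, limma, adjusted p = 0.925). Fen1, the flap endonuclease, lay within 50.9 to 55.4 FPKM in the libraries labelled cKO and spread from 33.8 in WT 3 over 39.4 in WT 1 to 65.9 FPKM in WT 2. Ung, a uracil-DNA glycosylase, was lowest in WT 3 at 7.93 FPKM and second highest in WT 1 at 22.6 FPKM. Exo1, an exonuclease, was the gene below the filter, at 0.870, 1.04 and 1.01 FPKM under the cKO label and 0.732, 0.631 and 0.968 under the WT label.

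All 5 nucleotide supply genes had a log2 difference above 0, with a median of 0.36, against 55.0% and 0.03 over all genes tested. In 1, higher with the cKO label, the unadjusted p was under 0.05 (limma), against 3.59% of all genes tested. Tyms, thymidylate synthase, reached 49.9, 39.5 and 38.8 FPKM with the cKO label, compared with 34.8, 26.4 and 23.0 with the WT label. The groups did not overlap, and the mean was 1.52-fold higher (log2 difference 0.60, standard error 0.196, limma, unadjusted p = 0.0195, adjusted p = 0.915). Dut, which removes dUTP, had 46.0, 61.2 and 43.3 FPKM across the libraries labelled cKO, against 45.9, 33.4 and 40.2 across those labelled WT, with overlap. Rrm1 and Rrm2, the subunits of ribonucleotide reductase, were lowest in WT 3, at 16.6 and 18.7 FPKM, and their log2 differences were 0.36 and 0.44. Tk1, thymidine kinase, ranged from 7.75 FPKM in cKO 2 to 21.7 FPKM in cKO 3, wider within that group than between the groups.

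In chromatin assembly, Chaf1a and Chaf1b encode subunits of the histone chaperone CAF-1. Chaf1a reached 4.75, 5.51 and 5.57 FPKM with the cKO label, compared with 2.78, 3.45 and 2.47 with the WT label, with both groups tight and no overlap. This was the smallest p of the set, for a 1.82-fold higher mean and a log2 difference of 0.69 with a standard error of 0.210 (limma, unadjusted p = 0.0143, adjusted p = 0.874). Chaf1b, at 20.1 to 36.0 FPKM, had a difference of 0.06. Slbp, which binds the ends of histone mRNAs, stood at 140, 152 and 144 against 141, 121 and 135 FPKM, and its highest value was 1.26 times its lowest, the smallest such ratio among the members.

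**Figure D2:**
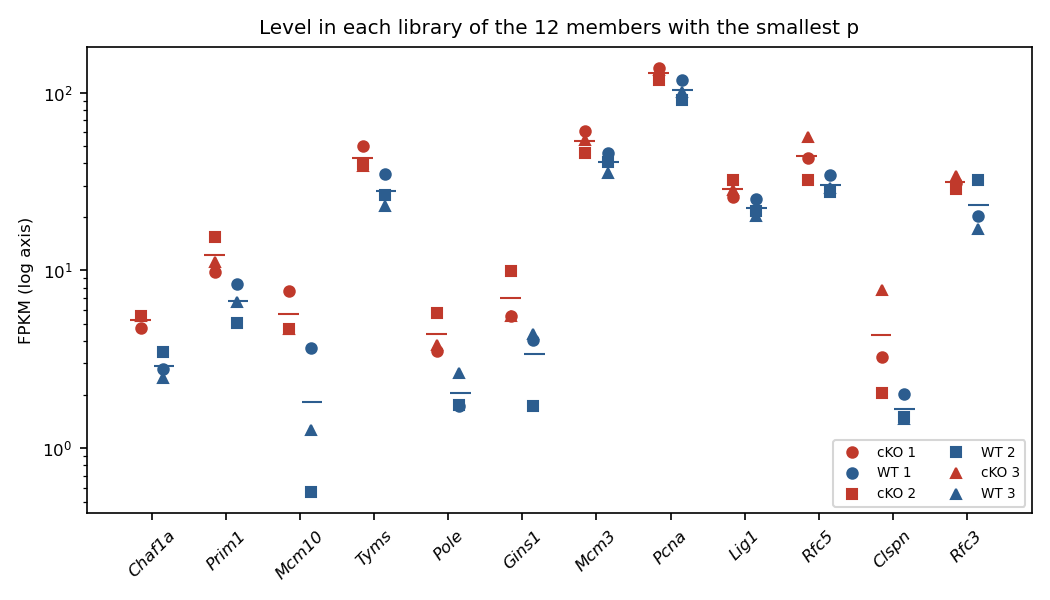
FPKM on a log axis for the 12 members with the smallest p, in libraries labelled cKO (red) and WT (blue), with marker shapes for the replicate numbers and short lines at the group means. Red points lie above blue in 10 of these genes, and in Rfc5 and Rfc3 the groups overlap. The 12 were picked by p in this same comparison, so their separation follows in part from the choice. These 10 are all such genes among the 40 tested members, against 6.96% of all genes tested.

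Libraries of one group also differed among themselves. Both cKO 1 and cKO 3 lay above the mean of the 6 libraries in 36 of 40 members, whereas cKO 2 did so in 17, WT 1 and WT 2 in 16 each and WT 3 in 3. No member had its lowest value in cKO 1 or cKO 3, and 18 had it in WT 3. In cKO 2, 10 members had their lowest value (Cdt1, Mcm2, Mcm4, Mcm5, Mcm6, Mcm7, Pola2, Pold1, Tk1 and Chaf1b) and 8 their highest (Orc6, Gins1, Gins2, Prim1, Pole, Lig1, Dut and Slbp). WT 2 had the lowest value of 9 members (Cdc6, Mcm10, Gins1, Gins2, Prim1, Pcna, Rfc5, Dut and Slbp) and the highest of 6 (Orc1, Cdt1, Mcm2, Dtl, Rpa2 and Fen1). The mean over the 40 genes, less its mean over the 6 libraries, came to 0.26, -0.018 and 0.27 under the cKO label and to -0.092, -0.088 and -0.33 under the WT label on the log2(FPKM + 1) scale. The spread within a group (pooled SD 0.149) was wider than the gap between cKO 2 and the WT libraries next to it. The 6 libraries spread by 0.078 when the mean was taken over all genes tested. Members with E2F-type letters in their window had a median difference of 0.26 (11 of 13 above 0), and the 21 with a window without them had one of 0.32 (19 above 0).

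**Figure D3:**
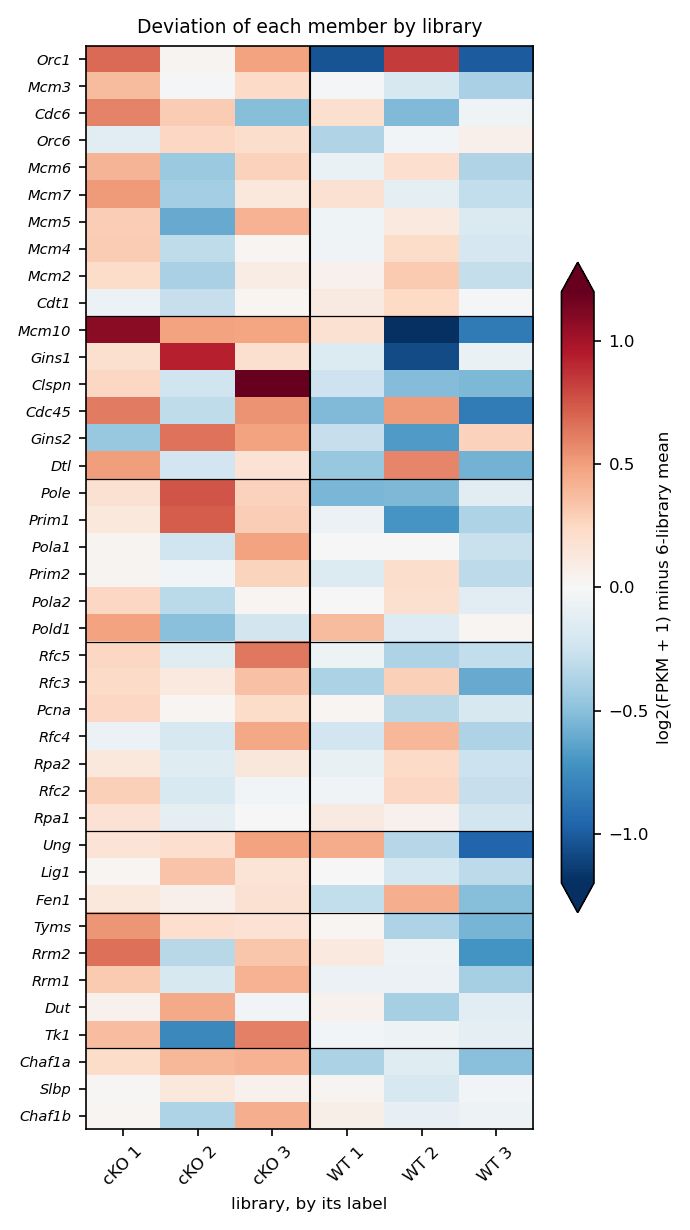
Each cell gives a member's log2(FPKM + 1) in a library (columns) minus its mean over the 6 libraries, red above and blue below, with members grouped by role and colours ending at the arrows of the scale. Columns cKO 1 and cKO 3 are mostly red and WT 3 mostly blue, while cKO 2 holds the lowest value of 10 members and the highest of 8.

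Markers of other cells were present in both groups, and their part in these differences was not tested. No listed marker was at 0 in all 6 libraries. Counts of tested markers above 0 on the log2 scale stand beside 55.0% of all genes tested. Summed erythroid markers were at 281 to 548 FPKM in the libraries labelled cKO and 132 to 288 FPKM in those labelled WT, with 7 of 8 tested members above 0 on the log2 scale. Globins, whose near-identical copies can share reads, made up most of that sum, while the erythroid genes Klf1 and Epor lay at 0.143 to 1.53 FPKM and Gata1 was at 12.7 to 17.5 against 18.4 to 36.5 FPKM. Alas2, the first enzyme of erythroid haem synthesis, went the other way, at 6.88, 6.51 and 8.06 against 4.86, 2.46 and 0.967 FPKM, without overlap (limma, adjusted p = 0.915). Summed myeloid markers lay at 313 to 441 against 269 to 301 FPKM (7 of 8 above 0). Cst3, at 172 to 293 against 150 to 206 FPKM, and Lyz2, at 64.7 to 83.2 against 35.5 to 71.4 FPKM, gave most of it. Both overlapped between the groups, and of the myeloid markers only Adgre1, at 1.66 to 3.32 FPKM, did not. Summed markers of CD8 and NK cells lay at 106 to 132 against 83.4 to 105 FPKM (2 of 3 above 0). Most of that sum was Nkg7, at 83.3 to 107 against 59.6 to 79.2 FPKM, while the NK receptor genes Klrd1 and Klrb1c were at 0.0 to 0.742 against 0.866 to 3.46 FPKM. B cell markers overlapped, at 123 to 163 against 108 to 156 FPKM (5 of 6), and so did plasma cell markers, at 153 to 209 against 134 to 228 FPKM (4 of 5). Treg markers summed to 6879 to 8470 against 5749 to 7329 FPKM (8 of 8). The T cell receptor gene Trac, which is not limited to Treg, gave most of this sum, at 4251 to 4624 against 3264 to 3916 FPKM. It was the only 1 of the 8 whose groups did not overlap. Foxp3 was at 5.75 to 9.44 against 5.16 to 7.51 FPKM.

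No gene of the wider lists had an adjusted p under 0.05 either (limma), where 0.025% of all genes tested did. Counts above 0 in these lists stand beside 55.0% of all genes tested. Of 35 other replication genes tested, 23 had a log2 difference above 0, with a median of 0.11. That median came to 0.017 without WT replicate 1. At an unadjusted p under 0.05, 4 were higher and 0 lower, against 3.59% and 1.78% of all genes tested. Gmnn, the inhibitor of Cdt1, had 31.0, 30.2 and 33.1 FPKM across the libraries labelled cKO, against 21.5, 17.6 and 19.6 across those labelled WT, without overlap (1.61-fold, limma, adjusted p = 0.748). Cdt1 itself, as given above, had a difference of the other sign. Asf1b, a histone chaperone that hands histones to CAF-1, stood at 13.9, 16.6 and 15.3 against 10.7, 9.01 and 8.15 FPKM, and Tipin, of the fork protection complex, at 41.6, 44.9 and 50.9 against 33.0, 32.8 and 38.8 FPKM. In both genes the groups did not overlap (limma, adjusted p = 0.846 and 0.915).

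The wider nucleotide synthesis list was near balance. Of 30 tested, 14 had a log2 difference above 0, with a median of -0.019, which was 0.13 when libraries were scaled to equal FPKM sums. As deposited, 0 were higher and 1 lower at an unadjusted p under 0.05, against 3.59% and 1.78% of all genes tested. That gene was Mthfd1, a folate enzyme that feeds purine and thymidylate synthesis, at 33.4, 28.3 and 36.0 FPKM with the cKO label and 48.3, 44.2 and 38.9 with the WT label, without overlap (limma, adjusted p = 0.915). Gart and Impdh1, of purine synthesis, were at 50.9 ± 2.07 against 61.5 ± 6.49 FPKM and at 79.4 ± 11.6 against 99.9 ± 13.0 FPKM (SD, n = 3 each). Gart's groups did not overlap and those of Impdh1 did.

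Of 26 tested genes of G1/S control, 15 had a log2 difference above 0, with a median of 0.04, or -0.016 after quantile normalization. At an unadjusted p under 0.05, 3 were higher and 0 lower, against 3.59% and 1.78% of all genes tested. In 4 the libraries labelled cKO all lay higher and in 3 all lower, against 6.96% and 3.75% of all genes tested. Cdkn2c, an inhibitor of Cdk4 and Cdk6, reached 22.7, 28.7 and 28.2 FPKM with the cKO label, compared with 13.1, 16.6 and 13.7 with the WT label (1.83-fold, limma, adjusted p = 0.748). Cdk6, the kinase it binds, was at 12.2, 9.17 and 9.85 against 7.11, 6.11 and 7.73 FPKM (limma, adjusted p = 0.915). Neither gene's groups overlapped. Ccna2, the cyclin of S phase and later, had 20.7, 8.45 and 16.2 FPKM across the libraries labelled cKO, against 7.79, 9.21 and 4.65 across those labelled WT, so cKO 2 lay within the other group. E2f1 was under the filter, at 0.384 to 1.05 FPKM. Of 17 tested genes of replication-coupled repair and checkpoints, 10 lay above 0, with a median of 0.023, or -0.013 with median-ratio scaling. Rad54l, a DNA translocase of homologous recombination, stood at 6.55 ± 0.374 against 4.83 ± 0.613 FPKM (SD, n = 3 each).

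In the list of mitosis genes, all 29 tested had a log2 difference above 0, against 55.0% of all genes tested. Their median was 0.58, against 0.03 over all genes tested. At an unadjusted p under 0.05, 12 were higher and 0 lower, against 3.59% and 1.78% of all genes tested. In 15 the libraries labelled cKO all lay higher, and in 0 all lower, against 6.96% and 3.75% of all genes tested. Birc5, an inhibitor of apoptosis in the chromosomal passenger complex, was at 26.8, 22.5 and 29.8 against 12.5, 14.2 and 9.40 FPKM. Cenpa, the centromeric histone, and Aurkb, the kinase of the passenger complex, stood at 47.5 ± 0.842 against 32.2 ± 0.831 and at 10.7 ± 1.62 against 5.39 ± 0.522 FPKM (SD, n = 3 each). None of these groups overlapped (limma, adjusted p from 0.748 to 0.756). Mki67, the proliferation marker, reached 7.37, 4.59 and 5.44 FPKM with the cKO label, compared with 3.0004, 4.77 and 2.84 with the WT label, with WT 2 just above cKO 2. For the mitosis list the mean by library, less that over the 6 libraries, came to 0.54, 0.036 and 0.40 under the cKO label and to -0.23, -0.19 and -0.56 under the WT label. As with the replication genes, cKO 1 and cKO 3 were high, cKO 2 lay between, and WT 3 was lowest. The difference between the lists was not tested, and the libraries are shared.

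**Figure D4:**
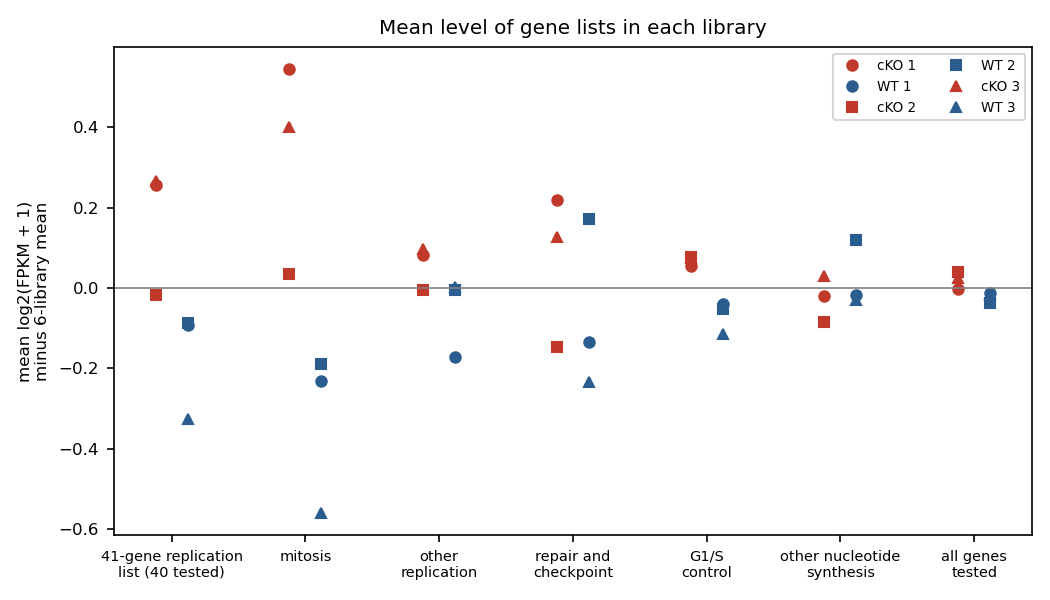
Mean log2(FPKM + 1) of the tested genes of each list in each library, relative to the mean of the 6 libraries, with red for libraries labelled cKO and blue for WT. The replication and mitosis lists span 0.59 and 1.10 across libraries, and the list of other nucleotide synthesis genes 0.20.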

How the data were processed

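FPKM values were deposited by the authors as 1 cuffnorm table of genes by 6 libraries. Per the labels' protocols, libraries were prepared with SmartSeq2 and sequenced on a HiSeq. Per the submitters' processing notes, FastQC, cutadapt and HISAT2 were used, with NCBIM37 and mm9. No annotation or strand setting is named in the sources used here, so overlapping genes cannot be told apart.

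Symbols came from a reference table (31840 of 36811 rows matched). The test was that of limma 3.58.1 (R 4.3.3) applied to log2(FPKM + 1) of every gene averaging 1 FPKM or more. It used a trended variance and was read at a Benjamini-Hochberg adjusted p of 0.05. This scale understates the differences of low genes. Fold values are ratios of mean FPKM. The procedure was tested on simulated data.

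The scale from fragments to FPKM was taken from genes with 1 transcript of at least 2000 bases, whose low values rise in whole steps. Between 77.7% and 83.8% of these lay within 0.1 fragment of a whole number. It need not equal the number sequenced, and fragments behind a value are estimates.

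The members and lists were chosen with earlier results of these data known. Values by library were given for the 12 members with the smallest p, the most abundant of each role, Bach2, Foxp3, Mki67 and the 3 genes of each wider list with the smallest p. Some genes under this rule are not reported here. Other members named were chosen after their values were seen. Alternatives were 2 other pseudocounts, 2 filters, 3 scalings, 3 variance models, a block on replicate number, and leaving out each library. Python 3.11.15 with pandas 2.3.3, numpy 2.4.6 and matplotlib 3.10.9 was used.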

Additional observations from a re-analysis of the deposited data

How the results depend on the processing

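In the 17 alternatives no member passed an adjusted p of 0.05. The count above 0 ran from 29 to 39, and the median difference from 0.18 to 0.40. Equal sums moved the median of all genes from 0.03 to 0.17, quantile normalization to -0.017. At an unadjusted p under 0.05 the 7 members higher with the cKO label became 3 with a minimum of 5 FPKM (33 members tested). The share of all genes was 3.39% there, from 3.59%. The 7 became 12 with equal sums (6.41%), 11 with library quality weights (7.59%) and 4 under a replicate block (2.46%). They became 4 to 11 when 1 library was left out (2.6% to 4.4%). The 10 members in which the libraries labelled cKO all lay higher became 6 with the minimum of 5 FPKM (6.91% of all genes). They became 6 with median-ratio scaling (5.62%), 15 with equal sums (13.2%) and 10 to 18 without 1 library (10.9% to 14.7%). Libraries of the same replicate number did not deviate together from their group means (r = -0.060, -0.18 and -0.017 for numbers 1, 2 and 3). With 3 libraries a group, such values cannot tell whether the libraries were paired. Beyond fewer genes or libraries, the cause was not tested.

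Directions were followed gene by gene only for the 37 genes of the naming rule given above. Among these, directions that turned, each without passing, were those of Foxp3 (-0.091 with quality weights, -0.065 to 0.25 without 1 library), Mcm6 (-0.0090 to 0.42), Pold1 (-0.44 to 0.051) and Rpa1 (-0.057 to 0.11, and -0.050 after quantile normalization). Further members turned too, since the count above 0 fell from 36 to 29 without cKO replicate 1. Of list medians, G1/S control was -0.016 after quantile normalization, and other nucleotide synthesis was 0.13 with equal sums and -0.11 to 0.032 without 1 library. Repair and checkpoint was -0.0060 with the higher minimum, -0.013 with median-ratio scaling and -0.0087 to 0.18 without 1 library. The median of other replication genes was 0.26 with equal sums and 0.017 to 0.16 without 1 library. Values of few fragments, such as the 3 to 33 of Orc1, carry a wide counting error.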
